A study of Homo sapiens with 18 samples.

Results

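The enzymes that make cholesterol, the SREBP2 system that switches them on, and the proteins that take up and move sterols were followed as 31 genes of 23368 in the deposited tables. The genes were chosen by name, from 33 symbols of which pairs such as SC5DL and SC5D stand for the same gene. All 31 were found. They comprise 8 genes of the mevalonate and isoprenoid steps, 12 of the squalene and sterol ring steps, 4 of SREBP2 and its control, 5 of uptake and transport, and 2 liver X receptors. The RNA came from SJSA cells, an established human osteosarcoma line in which the genes of MDM2 and CDK4 are both amplified. The study sequenced 6 conditions with 3 replicates each, which gave 18 libraries. DMSO was the solvent control. Nutlin, an antagonist of MDM2 that frees p53, was given at 20 µM for 6 h. PD24 cells received 10 µM PD0332991 (Palbociclib, an inhibitor of CDK4 and its relative CDK6) for 24 h and were then kept without it for 6 h, per the scheme of the study, whereas PD30 cells received 10 µM for 30 h up to harvest. N+PD24 and N+PD30 cells received the same 2 schedules and Nutlin at 20 µM for the last 6 h. All groups are a single cell line, so the replicates are cultures of this line and not donors. PD24 and PD30 differ in the length of exposure and in whether the drug was present at harvest, and these cannot be told apart. The sources used here do not say whether the medium was exchanged when PD0332991 was taken off or whether the other groups were handled alike, so removal of the drug and renewal of the medium cannot be told apart either.

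Cholesterol is made from acetyl-CoA through mevalonate, isoprenoid diphosphates and squalene, which is folded into lanosterol and trimmed to cholesterol by a chain of enzymes of the endoplasmic reticulum. SREBP2, the product of SREBF2, is held in that membrane by SCAP and the INSIG proteins while sterol is plentiful. When membrane sterol falls, SCAP carries SREBP2 to the Golgi, where proteases release the part that enters the nucleus and activates the genes of the pathway, among them INSIG1 and SREBF2 itself. Liver X receptors sense oxysterols and switch on the opposite side, sterol efflux pumps such as ABCA1 and the ligase MYLIP.

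Values are CPM, the reads of a gene per 1000000 reads counted in that library. Total counts ranged from 12704845 to 40231041 per library. Calls were made at 0.05 on p-values adjusted by the Benjamini-Hochberg method over all genes tested. The test was the quasi-likelihood test of edgeR where both groups were deposited as counts, and limma on log2(CPM + 0.5) where N+PD24 was one of the groups. As a check of the treatments, all 8 p53 targets examined were higher with Nutlin than with DMSO, and all 23 S and G2/M phase genes examined were lower than in DMSO with either PD0332991 schedule. Bone and mesenchymal markers were present in every group (RUNX2, COL1A1 and SPARC among them), and blood markers summed to at most 0.623 CPM. The epithelial markers EPCAM, KRT8, KRT18 and CDH1 were not absent as a sum. It ranged from 108 CPM (lowest, in N+PD30) to 264 CPM (highest, in DMSO). In bulk RNA of this kind, a change in the share of cells in a state and a change of RNA per cell cannot be told apart, and p-values measure only the spread between these cultures. The replicates were uneven for the sterol genes. Replicate 1 held the lowest value of 22 of the 31 genes in PD24, of 26 in N+PD24 and of 25 in N+PD30. It was lowest for 20 genes in DMSO and for 13 each in PD30 and Nutlin. How often replicate 1 was lowest over all genes is not given, so this is not read as particular to the sterol genes. N+PD30 replicate 1 was also the shallowest library, with 12704845 counts.

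PD30 cells held more RNA of most sterol synthesis genes than PD24 cells did. Of the 30 genes tested, 23 were higher in PD30 (background: 12.2% of the 15171 genes tested were called higher) and only MYLIP was lower (background: 12.9%). Of the 23, 17 were higher by over 2-fold (background: 3.42%). Of the 20 synthesis enzymes, 17 were higher and 0 lower by edgeR, with 0 lower also at an unadjusted p under 0.05 and by DESeq2. The median log2 fold change of the 30 was 1.13. PMVK, FDPS, LBR, SCAP, NPC2 and NR1H2 were not called, and NPC1L1 was too low to be tested. In this pair of groups same-numbered replicates deviated from their group means together, and with the replicate number as a block 26 genes were called higher (background with the block: 19.7% of the 15171 genes) and MYLIP lower (background: 20.6%), the added ones being FDPS (adjusted p = 0.022), LBR (adjusted p = 0.0379) and NPC2 (adjusted p = 0.015). Without replicate 1 in either group, 18 of the 23 were still called. In every fit that left out 1 library, the same 16 of the 23 were called, while ACAT2, GGPS1, LSS, TM7SF2, EBP, DHCR7 and SREBF2 missed the threshold in at least 1.

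**Figure D1:**
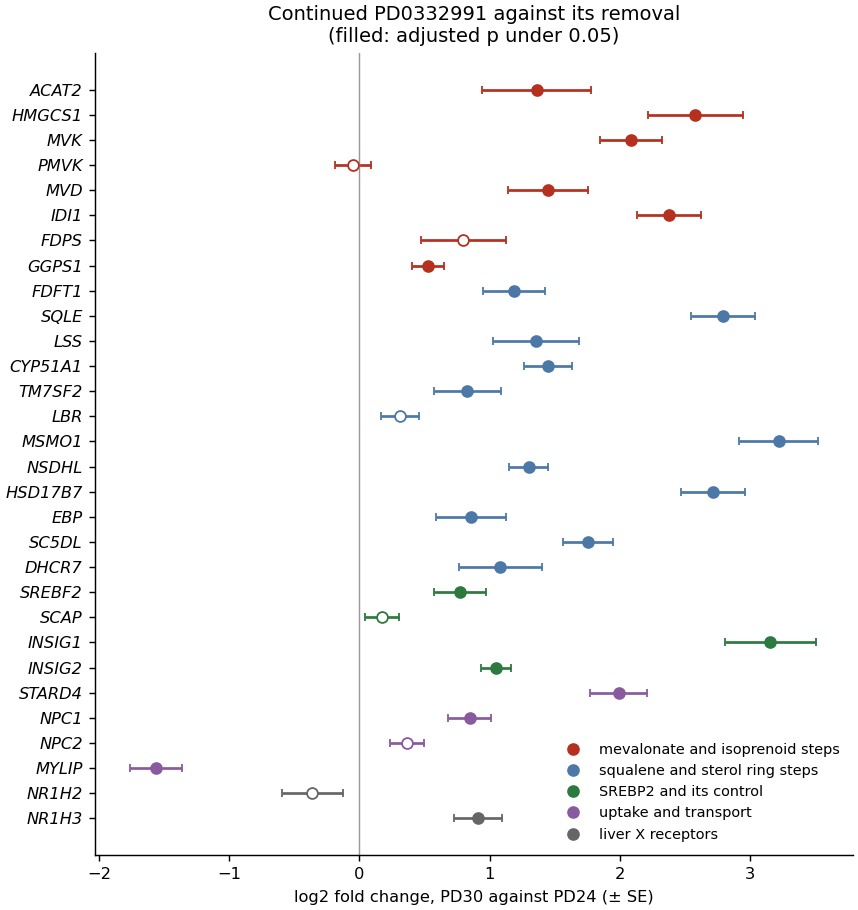
Log2 fold change of PD30 against PD24 (horizontal axis) with its standard error for the 30 genes tested, grouped by pathway step; filled points have an adjusted p under 0.05 by edgeR's quasi-likelihood test. MSMO1, INSIG1, SQLE, HSD17B7 and HMGCS1 lie furthest to the right, and MYLIP is the filled point on the left.

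The summed level of the 20 synthesis enzymes shows the size of the difference and its spread. The sum was 962, 1050.5 and 1091 CPM in the 3 DMSO libraries, 821, 1448 and 1960.5 CPM in PD24 and 3968, 4029.8 and 4515 CPM in PD30. No PD30 library came near a PD24 library, although the PD24 libraries differed more among themselves than those of any group without Nutlin. With Nutlin alone the sum stood at 892, 915 and 925 CPM. It was 1079, 1834 and 2068 CPM in N+PD24 and 1911, 4199 and 4689 CPM in N+PD30, so that N+PD30 replicate 1 fell among the N+PD24 libraries.

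**Figure D2:**
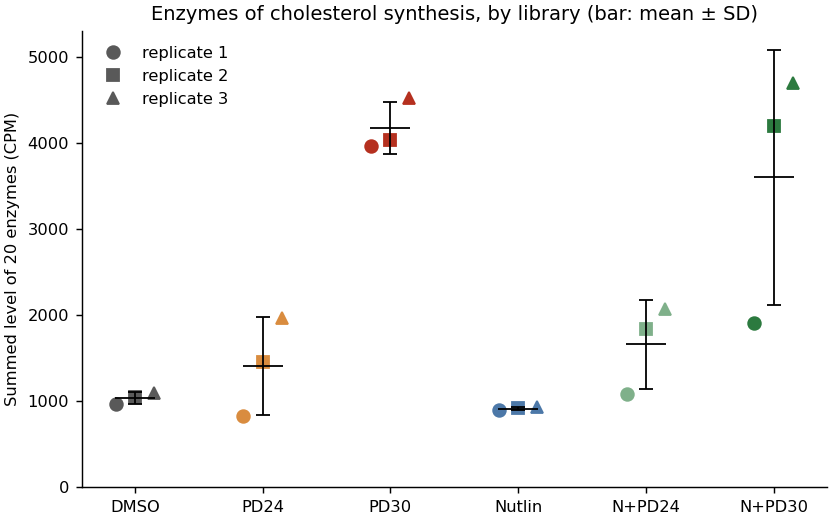
Summed CPM of the 20 enzymes of cholesterol synthesis (vertical axis) in each of the 18 libraries, by condition, with each group's mean and SD. The 3 PD30 libraries sit between 3968 and 4515 CPM, above all PD24 libraries, and replicate 1 is the lowest point in PD24, N+PD24 and N+PD30.

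Sequence upstream of the genes was read for those that RefSeq places on GRCh38.p14, which matched 28 of the 31 (not ACAT2, FDFT1 and SQLE). The 250 bases before the start of 4 genes are printed here because the genes stand for the main responses: the transcription factor gene SREBF2, the enzyme and the INSIG gene with the steepest rise, and the ligase gene MYLIP that went the other way. All 4 lie on the plus strand. Capitals mark any match, on either strand, to TCACNCCAC (the core of a sterol regulatory element) or CCAAT (the box bound by NF-Y). GGGCGG (a GC box) and CACGTG (an E-box) were also searched on both strands and are left in lower case, and matches can touch or overlap. The windows are chr22:41832855-41833104 for SREBF2, chr4:165327419-165327668 for MSMO1, chr7:155297628-155297877 for INSIG1 and chr6:16128836-16129085 for MYLIP.
SREBF2: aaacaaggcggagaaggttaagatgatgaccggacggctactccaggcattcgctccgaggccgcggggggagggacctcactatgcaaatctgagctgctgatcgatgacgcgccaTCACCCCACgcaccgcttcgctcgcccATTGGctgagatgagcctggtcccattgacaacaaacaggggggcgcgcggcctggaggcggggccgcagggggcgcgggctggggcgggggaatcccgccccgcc
MSMO1: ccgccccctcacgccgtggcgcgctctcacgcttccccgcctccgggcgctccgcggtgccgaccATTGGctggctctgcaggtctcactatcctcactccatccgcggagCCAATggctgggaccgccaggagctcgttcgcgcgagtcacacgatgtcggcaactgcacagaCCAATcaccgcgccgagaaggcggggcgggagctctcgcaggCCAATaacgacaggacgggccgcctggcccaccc
INSIG1: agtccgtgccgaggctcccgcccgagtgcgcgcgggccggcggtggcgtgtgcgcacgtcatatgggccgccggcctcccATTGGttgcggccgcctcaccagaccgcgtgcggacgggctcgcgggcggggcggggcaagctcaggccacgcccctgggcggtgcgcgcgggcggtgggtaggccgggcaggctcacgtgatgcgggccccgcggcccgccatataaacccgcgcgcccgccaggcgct
MYLIP: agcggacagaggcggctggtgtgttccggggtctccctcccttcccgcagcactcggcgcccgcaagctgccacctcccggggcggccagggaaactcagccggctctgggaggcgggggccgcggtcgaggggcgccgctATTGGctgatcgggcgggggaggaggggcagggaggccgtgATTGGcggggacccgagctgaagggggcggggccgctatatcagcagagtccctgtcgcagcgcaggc
SREBF2 was the only gene of the 28 with a TCACNCCAC match, whose first base lay at -133 from the start, against 1.09% of 27305 genes with such windows. CCAAT was found upstream of 21 of the 28 genes (75%), against 37% of all genes, with 4 matches in MSMO1, 2 in MYLIP and 1 each in INSIG1 and SREBF2. GGGCGG was found upstream of 25 of the 28 (89.3%), against 46.2% of all genes, and CACGTG upstream of 3 (10.7%), against 7.73%. A match describes the letters in this window and not a bound site. The lack of a TCACNCCAC match in these 250 bases does not show that a gene has no sterol regulatory element. The 27305 genes were not limited to those expressed in these cells.

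The mevalonate and isoprenoid steps begin with the joining of acetyl-CoA units. In the gene-by-gene account that follows, each log2 fold change is that of PD30 against PD24 by edgeR's quasi-likelihood test. Of these 8 genes, 6 were higher in PD30 than in PD24 and none lower, and the median of the log2 fold changes was 1.40. HMGCS1, the HMG-CoA synthase, stood at 54.8, 62.7 and 82.1 CPM in DMSO, 42.7, 44.9 and 123 CPM in PD24 and 413, 379 and 496 CPM in PD30. All PD30 libraries lay above all others of these groups, while PD24 replicate 3 stood well above replicates 1 and 2. The PD30 to PD24 difference was large (log2 fold change 2.58, SE 0.36, adjusted p = 0.00141). IDI1, the isomerase of isopentenyl diphosphate, was measured at 52.7, 59.3 and 72.2 CPM in DMSO, 29.2, 29.6 and 59.3 CPM in PD24 and 203, 194 and 232 CPM in PD30 (log2 fold change 2.38, SE 0.25, adjusted p = 0.000467). Its PD24 libraries lay below or within the DMSO range, and its PD30 libraries far above it.

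MVK, which phosphorylates mevalonate, went from 10.0, 19.1 and 17.7 CPM in PD24 to 55.9, 76.1 and 71.7 CPM in PD30 (log2 fold change 2.08, SE 0.23, adjusted p = 0.000611). MVD, the decarboxylase that yields isopentenyl diphosphate, stood at 21.1, 17.8 and 13.7 CPM in DMSO, 24.8, 65.7 and 38.8 CPM in PD24 and 98.3, 119.8 and 145 CPM in PD30 (log2 fold change 1.45, SE 0.31, adjusted p = 0.00958). The groups of both genes were apart. PMVK, the kinase that works between these enzymes, showed none of this: it stood at 17.1, 21.2 and 18.6 CPM in PD24 and 18.4, 20.4 and 17.5 CPM in PD30, overlapping groups with a log2 fold change of -0.05 (SE 0.14, adjusted p = 0.82).

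ACAT2, the cytosolic thiolase of the entry step, was uneven in PD24. It read 49.1, 63.8 and 63.1 CPM in DMSO, 32.5, 99.2 and 155 CPM in PD24 and 244, 239 and 270.4 CPM in PD30, so that PD24 replicate 1 was below and replicate 3 well above every DMSO library. The PD30 to PD24 difference passed the test (log2 fold change 1.36, SE 0.42, adjusted p = 0.0406) but was lost in some fits without 1 library. FDPS, the farnesyl diphosphate synthase, was spread in the same way, with 83.9, 198 and 276 CPM in PD24 against 339.6, 326 and 328 CPM in PD30. Its ratio of PD30 to PD24 was 4.05, 1.65 and 1.19 in replicates 1, 2 and 3, and the difference was not called without the block (log2 fold change 0.80, SE 0.33, adjusted p = 0.103). GGPS1, the geranylgeranyl diphosphate synthase that leads away from sterols to protein prenylation, differed little: 23.9, 20.3 and 19.6 CPM in PD24 and 32.9, 30.2 and 31.3 CPM in PD30 (log2 fold change 0.53, SE 0.12, adjusted p = 0.0132).

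Squalene formation and the sterol ring steps follow. Of these 12 genes, 11 were higher in PD30 than in PD24 and none lower, and their log2 fold changes had a median of 1.33. MSMO1, the methylsterol monooxygenase, stood at 28.6, 34.4 and 39.1 CPM in DMSO, 22, 24.1 and 52.8 CPM in PD24 and 299.98, 280.4 and 364 CPM in PD30. The DMSO and PD24 libraries overlapped, and all PD30 libraries lay far above both. Its log2 fold change was the greatest of the 30 tested (log2 fold change 3.22, SE 0.30, adjusted p = 0.000336), and the ratio was 13.6, 11.6 and 6.89 in replicates 1, 2 and 3. SQLE, the squalene epoxidase, stood at 51.6, 56.0 and 57.8 CPM in DMSO, 34.0, 37.4 and 69.3 CPM in PD24 and 309, 318 and 371 CPM in PD30 (log2 fold change 2.79, SE 0.24, adjusted p = 0.000232). Replicate 3 was again the highest PD24 library, yet far below every PD30 library. HSD17B7, a sterol ketoreductase of low level, read 3.94, 4.58 and 5.82 CPM in DMSO, 1.97, 2.61 and 4.23 CPM in PD24 and 19.0, 18.7 and 22.5 CPM in PD30 (log2 fold change 2.72, SE 0.25, adjusted p = 0.000279).

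FDFT1, the squalene synthase that commits the pathway to sterols, stood at 151, 165 and 159 CPM in DMSO, 154, 258 and 350.1 CPM in PD24 and 570.2, 604 and 603 CPM in PD30 (log2 fold change 1.19, SE 0.24, adjusted p = 0.00719). LSS, the lanosterol synthase, stood at 74.0, 83.2 and 77.0 CPM in DMSO, 83.7, 214 and 268 CPM in PD24 and 452, 508 and 522 CPM in PD30 (log2 fold change 1.35, SE 0.33, adjusted p = 0.0169). In both genes PD24 replicates 2 and 3 were above DMSO and replicate 1 was close to it. CYP51A1, the lanosterol demethylase, stood at 60.4, 68.0 and 68.4 CPM in DMSO, 79.6, 97.7 and 138 CPM in PD24 and 278, 265 and 337 CPM in PD30 (log2 fold change 1.45, SE 0.18, adjusted p = 0.000944). NSDHL, the dehydrogenase that follows MSMO1, was at 29.3, 37.2 and 45.6 CPM in PD24 and at 93.7, 94.2 and 94.9 CPM in PD30, with almost no spread in the latter (log2 fold change 1.3, SE 0.15, adjusted p = 0.000638). SC5DL, the sterol desaturase now named SC5D, was at 40.3, 44.9 and 65.1 CPM in PD24 and 163, 144 and 213 CPM in PD30 (log2 fold change 1.75, SE 0.19, adjusted p = 0.000569). These groups did not overlap.

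EBP, the sterol isomerase, differed less, with 29.4, 62.8 and 71.6 CPM in PD24 and 94.3, 111 and 99.1 CPM in PD30 (log2 fold change 0.86, SE 0.27, adjusted p = 0.0437). DHCR7, the reductase of the last step in one branch, stood at 39.1, 37.7 and 34.2 CPM in DMSO, 52.8, 143 and 152 CPM in PD24 and 247, 262 and 246 CPM in PD30 (log2 fold change 1.08, SE 0.32, adjusted p = 0.0345). Every PD24 library of DHCR7 was already above DMSO. A pair of reductases, TM7SF2 and LBR, catalyse the same sterol step. TM7SF2 was low throughout, at 2.21, 4.38 and 4.50 CPM in PD24 and 6.10, 7.37 and 6.73 CPM in PD30 (log2 fold change 0.83, SE 0.26, adjusted p = 0.042). LBR, which is also the lamin B receptor of the inner nuclear membrane, read 104, 114 and 129 CPM in DMSO, 27.6, 24.4 and 30.9 CPM in PD24 and 30.6, 32.7 and 42.1 CPM in PD30. Both schedules put LBR well below DMSO, and the schedules overlapped with no call between them (log2 fold change 0.31, SE 0.14, adjusted p = 0.146).

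**Figure D3:**
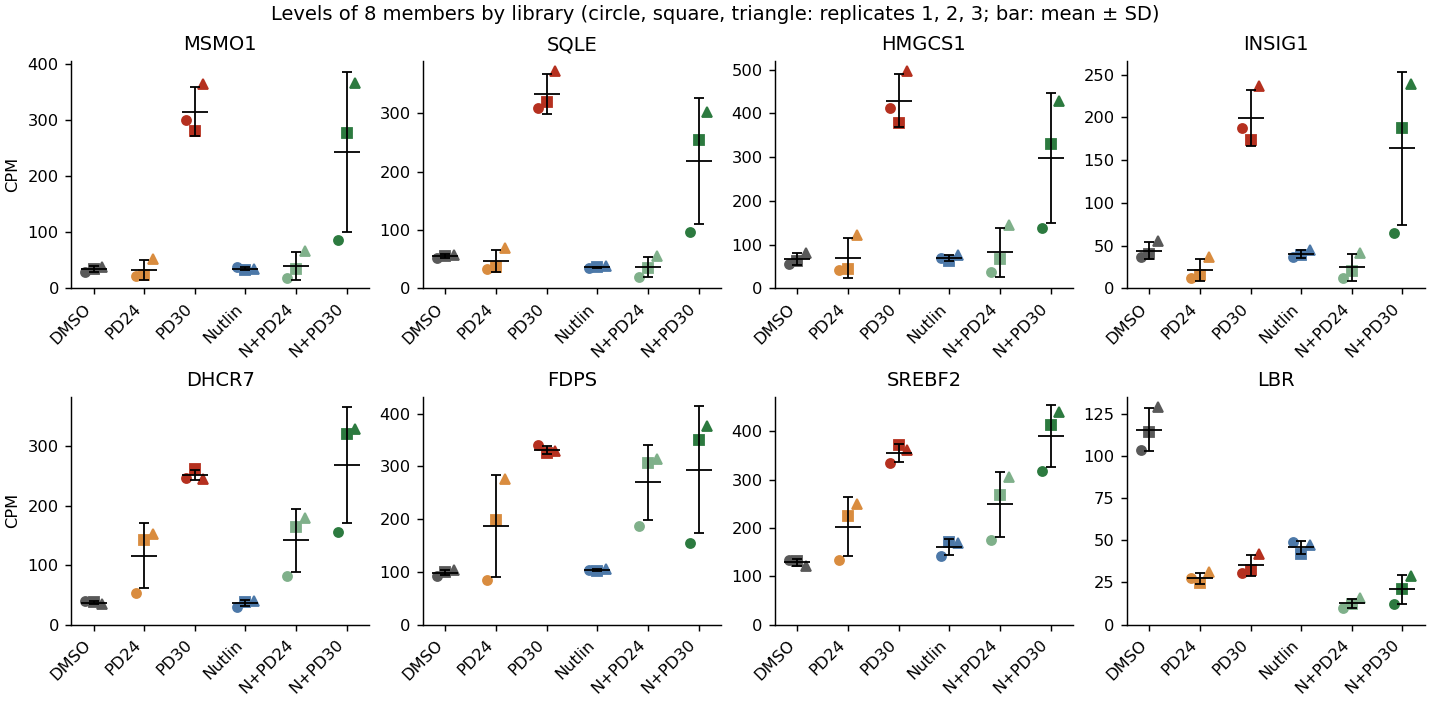
CPM (vertical axis of each panel) of MSMO1, SQLE, HMGCS1, INSIG1, DHCR7, FDPS, SREBF2 and LBR in the 18 libraries by condition, 1 point per replicate. PD30 is high in all panels but LBR, PD24 spreads between its replicates, and LBR is highest in DMSO.

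Among the genes of SREBP2 and its control, SREBF2, INSIG1 and INSIG2 were higher in PD30 than in PD24 and SCAP was not called. SREBF2 stood at 134, 131 and 120.3 CPM in DMSO, 133, 225 and 249 CPM in PD24 and 334, 371 and 361 CPM in PD30 (log2 fold change 0.77, SE 0.20, adjusted p = 0.0211). PD24 replicate 1 was within the DMSO range and all PD30 libraries were above the rest. INSIG1, the sterol sensor partner that is itself a target of SREBP2, had one of the greatest differences of the set. It stood at 37.3, 40.3 and 55.2 CPM in DMSO, 12.6, 15.7 and 36.9 CPM in PD24 and 187, 174 and 237 CPM in PD30 (log2 fold change 3.15, SE 0.35, adjusted p = 0.000582), with ratios of 14.9, 11.1 and 6.41 in replicates 1, 2 and 3. All PD24 libraries of INSIG1 were below DMSO and all PD30 libraries above it. INSIG2, the paralogue with the same retention role, moved over a smaller range, with 27.9, 29.8 and 33.2 CPM in DMSO, 18.9, 15.1 and 17.7 CPM in PD24 and 36.4, 35.8 and 37.7 CPM in PD30 (log2 fold change 1.05, SE 0.12, adjusted p = 0.000599). SCAP, the escort of SREBP2, stood at 92.3, 110.5 and 84.7 CPM in PD24 and 112, 117 and 103 CPM in PD30, which overlapped (log2 fold change 0.17, SE 0.13, adjusted p = 0.361).

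Of the uptake and transport genes, STARD4 and NPC1 were higher in PD30 than in PD24, MYLIP was lower and NPC2 was not called. STARD4, a soluble carrier that moves sterol between membranes, stood at 44.9, 48.0 and 52.1 CPM in DMSO, 37.4, 28.2 and 56.6 CPM in PD24 and 157, 145 and 195 CPM in PD30 (log2 fold change 1.99, SE 0.22, adjusted p = 0.00057). NPC1, which with NPC2 exports cholesterol from lysosomes, stood at 125, 125 and 142 CPM in DMSO, 182, 183 and 259.7 CPM in PD24 and 468, 335 and 349 CPM in PD30 (log2 fold change 0.85, SE 0.17, adjusted p = 0.00662). The 3 groups of NPC1 were apart, in the order DMSO, PD24, PD30. NPC2 read 81.1, 99.5 and 117 CPM in PD24 and 129, 133 and 130.3 CPM in PD30 (log2 fold change 0.37, SE 0.13, adjusted p = 0.0671). MYLIP, the ligase that marks lipoprotein receptors for degradation, stood at 17.4, 15.4 and 16.5 CPM in DMSO, 15.4, 14.7 and 13.6 CPM in PD24 and 5.75, 5.81 and 3.58 CPM in PD30 (log2 fold change -1.56, SE 0.20, adjusted p = 0.000968). DMSO and PD24 overlapped and PD30 lay below both. NPC1L1, the sterol importer of intestine and liver, had 1 to 6 reads in each DMSO, PD24 and PD30 library and was not tested here.

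The liver X receptors split. NR1H3, which encodes the alpha receptor, stood at 4.35, 3.54 and 3.48 CPM in PD24 and 7.75, 8.15 and 6.02 CPM in PD30 (log2 fold change 0.91, SE 0.18, adjusted p = 0.0076), groups that did not overlap. NR1H2, the beta receptor, stood at 64.2, 96.1 and 50.4 CPM in PD24 and 45.2, 63.5 and 59.9 CPM in PD30, overlapping and not called (log2 fold change -0.36, SE 0.23, adjusted p = 0.286).

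Against DMSO the schedules differed in how many sterol genes they moved. PD30 put 26 of the 30 genes above DMSO (background: 22.9% of 15125 genes) and LBR and MYLIP below it (background: 25.4%), and the median log2 fold change was 1.73. PMVK and NR1H2 were not called. The greatest changes were those of MSMO1 (3.19 on the log2 scale), MVD (2.77), DHCR7 (2.75), HMGCS1 (2.67), LSS (2.65) and SQLE (2.58). SREBF2 rose by 1.45 (adjusted p = 7.91e-07), INSIG1 by 2.16 (adjusted p = 5.53e-06) and SCAP by 0.57 (adjusted p = 0.00195), all on the log2 scale. LBR fell (log2 fold change -1.73, adjusted p = 5.99e-06), as did MYLIP (log2 fold change -1.72, adjusted p = 6.83e-05). The smallest calls were INSIG2 (log2 fold change 0.26, adjusted p = 0.0449) and GGPS1 (log2 fold change 0.30, adjusted p = 0.0187), each lost in some fits without 1 library.

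PD24 put 8 of the 30 above DMSO (background: 17.5% of 15094 genes) and 3 below it (background: 20.8%), with a median log2 fold change of 0.30. PD24 and PD30 were compared with the same DMSO libraries. The 8 higher genes were DHCR7 (log2 fold change 1.67, adjusted p = 0.00414), MVD (1.32, adjusted p = 0.0119), LSS (1.29, adjusted p = 0.0151), CYP51A1 (0.70, adjusted p = 0.0126), FDFT1 (0.70, adjusted p = 0.0422), NPC1 (0.69, adjusted p = 0.00411), SREBF2 (0.68, adjusted p = 0.0255) and NPC2 (0.48, adjusted p = 0.0379). The 3 lower ones were LBR (log2 fold change -2.04, adjusted p = 2.31e-06), INSIG1 (-1.0, adjusted p = 0.0473) and INSIG2 (-0.79, adjusted p = 0.00126). The calls of FDFT1, SREBF2, NPC2 and INSIG1 were each lost in at least 1 fit without 1 library. That of INSIG1 was lost in 9 of the alternatives run. Several genes with a wide gap between PD30 and PD24 were not called here: MSMO1 had a log2 fold change of -0.03, SQLE of -0.21, HMGCS1 of 0.09 and IDI1 of -0.62. The count of higher genes depended on single libraries: it was 13 without PD24 replicate 1 and 5 without PD24 replicate 2, DMSO replicate 1 or DMSO replicate 2. The count of lower genes was 9 without PD24 replicate 3. HMGCS1 then had a log2 fold change of -0.56 (adjusted p = 0.0275), in place of 0.09 with all libraries.

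**Figure D4:**
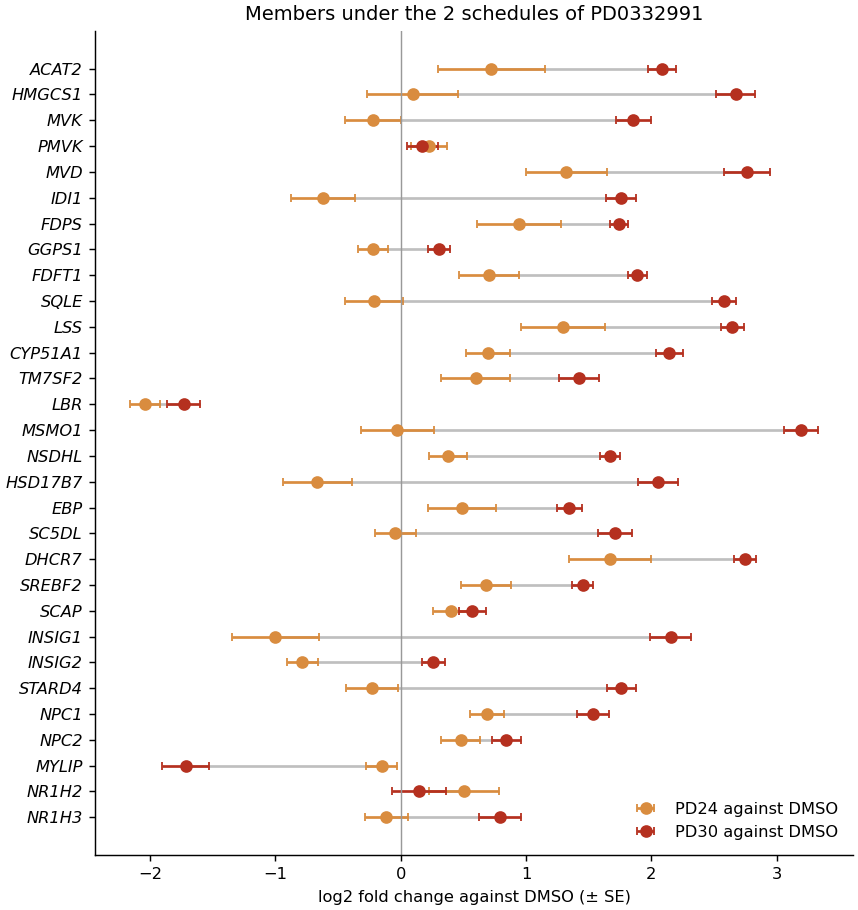
Log2 fold change against DMSO with its standard error for PD24 and PD30, for each gene tested, by pathway step. All points are filled, whether called or not. The PD30 points lie to the right of the PD24 points for most genes, LBR is to the left of 0 in both, and MYLIP is to the left of 0 in PD30.

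Within PD24 the genes fell into patterns against the range of the DMSO libraries, which are given as a description. How often all genes of these libraries showed such patterns is not given, so none is read as particular to the sterol genes. In 7 genes, PD24 replicates 1 and 2 were below every DMSO library and replicate 3 was not: HMGCS1, IDI1, SQLE, MSMO1, HSD17B7, SC5DL and STARD4. In 9 genes, replicates 2 and 3 were above every DMSO library and replicate 1 was not: ACAT2, PMVK, FDPS, FDFT1, TM7SF2, NSDHL, EBP, SREBF2 and NPC2. All 3 PD24 libraries were above DMSO for MVD, LSS, CYP51A1, DHCR7, SCAP and NPC1, and all 3 below it for GGPS1, LBR, INSIG1 and INSIG2. Hence the PD24 mean stands for cultures that differed, and its SD was wide: DHCR7 had 116 ± 54.9 CPM (SD, n = 3) in PD24 against 252 ± 9.17 CPM in PD30. What made PD24 replicates 1 and 3 differ was not tested.

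Nutlin alone moved 10 of these genes. Of 31 tested, 6 were higher than in DMSO (background: 26.6% of 15766 genes) and 4 lower (background: 28%). Neither count was above the share over all genes, and nothing particular to the sterol genes is read from them. SQLE fell from 51.6, 56.0 and 57.8 CPM in DMSO to 35.0, 36.0 and 37.7 CPM with Nutlin (log2 fold change -0.48, SE 0.09, adjusted p = 0.00167). LBR fell to 49, 41.7 and 47.1 CPM (log2 fold change -1.21, SE 0.11, adjusted p = 1.58e-05) and INSIG2 to 15.9, 13.8 and 15.2 CPM (log2 fold change -0.89, SE 0.12, adjusted p = 0.000141), each below all DMSO libraries. CYP51A1 was lower by a smaller step, -0.35 on the log2 scale (adjusted p = 0.0143). The higher genes were SREBF2 (log2 fold change 0.45, adjusted p = 0.00378), NPC1 (0.28, adjusted p = 0.0219), NPC2 (0.38, adjusted p = 0.0392), TM7SF2 (1.04, adjusted p = 0.00327), NR1H3 and NPC1L1, the last of which passed the filter on low values only through the Nutlin libraries. The calls of NPC1 and NPC2 were each lost in 6 of the alternatives run, scaling by totals among them. NR1H3 rose from 4.36, 4.40 and 3.72 CPM to 10.9, 10.1 and 8.88 CPM (log2 fold change 1.39, SE 0.16, adjusted p = 6.45e-05), with no overlap.

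NPC1L1 was all but absent without Nutlin. It had 3, 3 and 1 reads in DMSO and 44, 95 and 92 reads with Nutlin, or 1.44, 3.16 and 3.39 CPM. Summed over the libraries, 231 reads against 7 gave a ratio of CPM of 34.9 (95% interval 16.7 to 87.8, counting error only). In the N+PD24 libraries 20, 68 and 33 reads were found, and in N+PD30 4, 3 and 4. N+PD30 was 15.1-fold below Nutlin by summed reads (interval 8.29 to 30.7, counting error only). The gene passed the filter on low values through the libraries with Nutlin alone, or through N+PD24 in the comparison of N+PD30 with N+PD24. Where the other group of a comparison was near 0 reads its call follows from that filter, so these values are a description and support nothing. Another gene of liver moved with it: the 3 liver markers ALB, APOA1 and TTR summed to at most 0.0323 CPM in DMSO, 2.20 to 2.69 CPM with Nutlin, 1.06 to 1.34 CPM in N+PD24 and 0.291 to 0.551 CPM in N+PD30, most of it ALB, while TTR was at 0 in every library with Nutlin alone. The part of this in the NPC1L1 result was not tested.

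With Nutlin present, most sterol genes were again higher under continuous PD0332991. N+PD30 had 25 of 31 genes above Nutlin (background: 24.3% of 15721 genes) and LBR, MYLIP and NPC1L1 below it (background: 24.7%), NPC1L1 having been tested only for its level with Nutlin alone, and these calls were kept in each fit that left out 1 library. MVD stood at 12.6, 21.1 and 20.1 CPM with Nutlin and 111, 225 and 210.0 CPM in N+PD30 (log2 fold change 3.30, SE 0.27, adjusted p = 5.5e-06). DHCR7 stood at 29.9, 38.7 and 39.9 CPM and 156, 321 and 329 CPM (log2 fold change 2.85, SE 0.25, adjusted p = 8.43e-06). MSMO1 stood at 38.5, 32.4 and 34.6 CPM and 86.4, 277 and 367 CPM (log2 fold change 2.74, SE 0.39, adjusted p = 0.00023), with replicate 1 of N+PD30 far below the other two. SCAP was at 166, 147 and 129 CPM in N+PD30 against 63.2, 73.7 and 75.6 CPM (log2 fold change 1.02, SE 0.14, adjusted p = 0.000216), and its interaction of Nutlin and PD30 was not called (0.50 on the log2 scale, adjusted p = 0.0735). PMVK, GGPS1 and NR1H3 were not called.

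N+PD24 had 12 genes above Nutlin by limma (background: 17.6% of 15262 genes) and LBR and INSIG2 below it (background: 17.7%). The 12 were ACAT2, MVD, FDPS, FDFT1, LSS, CYP51A1, NSDHL, EBP, DHCR7, SREBF2, NPC1 and NPC2. DHCR7 again stood first, at 81.4, 164 and 179.9 CPM (log2 fold change 1.96, SE 0.25, adjusted p = 0.000349), followed by FDPS at 187, 307 and 314 CPM (log2 fold change 1.42, SE 0.17, adjusted p = 0.000214). HMGCS1, SQLE and MSMO1 were not called, with log2 fold changes of 0.11, -0.02 and 0.08. Same-numbered replicates deviated together in this pair of groups too, and with the replicate number as a block 14 genes were higher (background with the block: 27.6% of the 15262 genes) and 7 lower (background: 26.9%). Those added on the lower side were HSD17B7, INSIG1 (adjusted p = 0.000194), NPC1L1, MYLIP and NR1H3, and on the higher side SC5DL and SCAP.

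The schedules were also set against each other under Nutlin. N+PD30 had 17 of 31 genes above N+PD24 by limma (background: 15.9% of 14945 genes) and NPC1L1, tested only for its level in N+PD24, below it (background: 16.4%). INSIG1 stood at 11.9, 20.1 and 42.0 CPM in N+PD24 and 64.3, 188 and 239 CPM in N+PD30 (log2 fold change 2.57, SE 0.50, adjusted p = 0.00421). SQLE stood at 20.1, 35.2 and 54.8 CPM and 96.3, 253 and 303 CPM (log2 fold change 2.39, SE 0.42, adjusted p = 0.00274). INSIG2 stood at 10.2, 8.09 and 9.75 CPM and 24.5, 32.1 and 30.5 CPM (log2 fold change 1.46, SE 0.15, adjusted p = 0.000318). FDPS, at 187, 307 and 314 CPM and 155, 349.6 and 377 CPM, overlapped and was not called (adjusted p = 0.897). The 17 became 9 without N+PD24 replicate 1, N+PD24 replicate 2 or N+PD30 replicate 2, and 23 was the highest count in such fits. Within each replicate number, N+PD30 exceeded N+PD24 for INSIG1 by 5.41, 9.36 and 5.69 times.

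Whether Nutlin altered the effect of PD30 was tested by the interaction over DMSO, Nutlin, PD30 and N+PD30. Of 31 genes, INSIG2 was called on the higher side (background: 12.8% of 16113 genes) and NR1H3 and NPC1L1, the latter tested only for its level with Nutlin alone, on the lower (background: 7.03%). By edgeR 0 of the 20 synthesis enzymes were called, with 0 also at an unadjusted p under 0.05 and 0 by DESeq2, and their median interaction was -0.05 on the log2 scale. For MSMO1 the interaction was -0.41 (SE 0.47, adjusted p = 0.581) and for HMGCS1 -0.59 (SE 0.39, adjusted p = 0.324). SEs of this size leave room for differences between these effects. INSIG2 had an interaction of 0.70 (SE 0.15, adjusted p = 0.00667): its log2 fold change with PD30 was 0.26 against DMSO and 0.92 against Nutlin. For NR1H3 these changes were 0.80 and -0.20, with an interaction of -0.96 (SE 0.26, adjusted p = 0.0197).

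Genes around the pathway were counted from further lists, to be read against the 12.2% of all genes called higher and the 12.9% called lower in PD30 against PD24 and a median over all genes of -0.02 on the log2 scale. Among 18 other genes of SREBP processing and of the sterol-regulated degradation that shares its machinery, 4 were higher and 3 lower in PD30 than in PD24, around a median of 0.06 on the log2 scale. RNF145, a ubiquitin ligase that responds to sterol, stood at 228, 207 and 297 CPM in PD24 and 574, 532 and 604 CPM in PD30 (log2 fold change 1.19, SE 0.13, adjusted p = 0.000537). The Golgi proteases that cleave SREBP2 showed small differences: MBTPS2 was higher (log2 fold change 0.49, SE 0.10, adjusted p = 0.0084), and MBTPS1 was not called (adjusted p = 0.199). Of the 15 genes of the non-sterol isoprenoid branch, 2 were higher and 3 lower, PDSS1 of ubiquinone synthesis among the latter (log2 fold change -0.81, SE 0.15, adjusted p = 0.0045). Of the 26 sterol transport and storage genes tested, 7 were higher and 3 lower. The lower calls of these 3 lists and the higher calls of the isoprenoid branch were thus close to the share over all genes, and nothing particular to these lists is read from them. TMEM97, a binding partner of NPC1, stood at 36.9, 66.1 and 72.7 CPM in PD24 and 287, 275 and 294 CPM in PD30 (log2 fold change 2.25, SE 0.22, adjusted p = 0.000374), and OSBPL6, an oxysterol-binding protein, at 9.27, 8.73 and 11.3 CPM and 3.0, 3.48 and 3.92 CPM (log2 fold change -1.53, SE 0.17, adjusted p = 0.000582). Of 3 oxysterol and bile acid enzymes tested, edgeR called 0, with 1 at an unadjusted p under 0.05, and DESeq2 called 1 of 7.

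The fatty acid branch, which SREBP1 governs, lies beside the sterol branch. Of 12 genes of its list, 8 were higher in PD30 than in PD24 (12.2% of all genes were) and none lower, and the median was 1.06 on the log2 scale. LPIN1, a phosphatidate phosphatase, stood at 37.8, 41.1 and 54.7 CPM in PD24 and 194, 188 and 239 CPM in PD30 (log2 fold change 2.18, SE 0.15, adjusted p = 0.000132). ELOVL6, a fatty acid elongase, stood at 24.2, 22.8 and 38.2 CPM and 131, 116 and 132 CPM (log2 fold change 2.12, SE 0.18, adjusted p = 0.000218). SREBF1 itself stood at 75.8, 92.6 and 51.7 CPM and 61.6, 66.4 and 62.8 CPM, overlapping and not called (adjusted p = 0.381).

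On the side of the liver X receptors, 10 further target and efflux genes held 1 that was higher and 2 that were lower in PD30 than in PD24, counts close to the 12.2% and 12.9% of all genes. The 10 genes summed to 616 to 1070 CPM in PD24 and to 1645 to 1879 CPM in PD30, so their sum did not fall with the 2 lower genes. SCD and SREBF1 stand in this list and in that of the fatty acid genes. ABCA1, the pump that loads cholesterol onto apolipoprotein, stood at 59.0, 57.3 and 57.7 CPM in DMSO, 165, 122 and 98.7 CPM in PD24 and 12.3, 9.23 and 8.18 CPM in PD30 (log2 fold change -3.74, SE 0.23, adjusted p = 8.72e-05). Its PD24 libraries were all above DMSO and its PD30 libraries all below. With Nutlin it stood at 172, 137 and 153 CPM, with 295, 220.3 and 205 CPM in N+PD24 and 71.7, 33.8 and 23.9 CPM in N+PD30 (N+PD30 against N+PD24 by limma: log2 fold change -2.72, SE 0.35, adjusted p = 0.00068). ABCG1, a related pump, stood at 13.3, 12.2 and 8.57 CPM in DMSO, 8.89, 7.63 and 5.32 CPM in PD24 and 2.45, 2.14 and 2.24 CPM in PD30 (log2 fold change -1.71, SE 0.22, adjusted p = 0.000981).

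**Figure D5:**
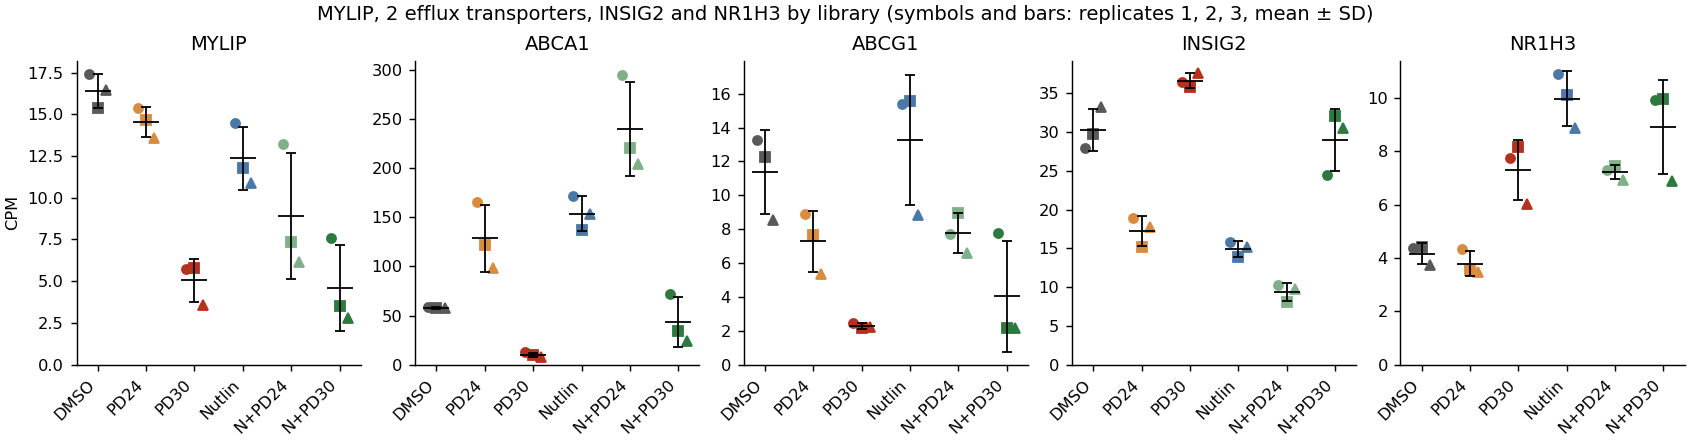
CPM (vertical axis of each panel) of MYLIP, ABCA1, ABCG1, INSIG2 and NR1H3 in the 18 libraries by condition, 1 point per replicate. MYLIP, ABCA1 and ABCG1 are lower in PD30 than in PD24, ABCA1 is high in PD24 and in Nutlin, and INSIG2 is low in PD24 and in Nutlin.

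The cell cycle genes moved differently from the sterol genes. The 23 S and G2/M genes summed to 6438 to 7049 CPM in DMSO, 310 to 428 CPM in PD24 and 229 to 277 CPM in PD30. Both schedules were thus far below DMSO for these genes, whereas the sterol enzymes were high in PD30 and mixed in PD24. Between the schedules 2 of the 23 were higher in PD30 (background: 12.2% of 15171 genes) and 8 lower (background: 12.9%), 3 of the 8 by over 2-fold. The lower calls were thus above the share over all genes, while the median of the 23 was -0.13 on the log2 scale. The part of the cell cycle genes in the sterol result was not tested.

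Levels between genes were compared per kilobase of annotated exon on GRCh37, the assembly behind the hg19 mapping. In PD30 FDFT1 led with 117 CPM per kb, then MSMO1 with 110.4, ACAT2 with 95.3 and FDPS with 89.1. In DMSO FDFT1 also led, with 31.1 CPM per kb, and MSMO1 had 11.9. At the low end in PD30 stood NR1H3 (1.61 CPM per kb), MYLIP (1.64), TM7SF2 (1.98) and, near absence, NPC1L1 (0.0261). The genes of the main responses lie at chr4:166248819-166264316 (MSMO1, plus strand), chr7:155089486-155101945 (INSIG1, plus), chr22:42229109-42303310 (SREBF2, plus), chr5:43287572-43313614 (HMGCS1, minus) and chr6:16129317-16148479 (MYLIP, plus) on that assembly. Reads counted over whole gene models can include those of neighbours. Same-strand protein-coding models cover 68.2% of the exon bases of CYP51A1, 37.3% of GGPS1 and 36.4% of EBP. Opposite-strand genes cover 37.7% of HMGCS1, 22.1% of NR1H2, 18.6% of FDPS and 17.2% of ACAT2 (by TCP1). The same-strand models and the gene opposite HMGCS1 had no row in the deposited tables. The genes opposite NR1H2 and FDPS had at most 0.199 and 0.368 CPM, and TCP1 at most 466 CPM. The sources do not state whether the kit kept the strand, so reads of opposite-strand genes may be included. These percentages are of annotated bases and do not measure shared reads. The pseudogene HSD17B7P2 had at most 0.823 CPM.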

How the data were processed

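The authors treated SJSA cells in biological triplicate, aligned single-end reads by TopHat and Bowtie 2 to hg19, and obtained counts over exons from HTSeq 0.6.0 in its reverse-strand mode. The authors deposited whole-number counts per gene for DMSO, Nutlin, PD24, PD30 and N+PD30. For N+PD24 the authors deposited a signal already scaled by a constant for each library, from which whole reads were recovered for 100% of values (tolerance 0.05). The authors' own comparison of Nutlin with DMSO, which holds fold changes and p-values, was not used. The study used Nutlin at more than 1 dose across its experiments. The labels' 20 µM was used here, which a scheme of the study for SJSA cells also gives. The sources name different sequencer models. Of 23368 gene names, 28 had been turned into dates and were kept as such.

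From these files, groups of 3 libraries were compared on counts with edgeR 4.0.16 (R 4.3.3, quasi-likelihood test, TMM, filterByExpr). Comparisons with N+PD24 used limma 3.58.1 on log2(CPM + 0.5), which understates changes of low genes, with CPM of at least 0.5 in at least 3 libraries. The genes and the other lists were chosen with earlier results of these data known. All 31 genes are named, and from each other list at most the 2 called genes with the greatest PD30 to PD24 change, plus MBTPS1, MBTPS2, SREBF1 and TMEM97. Promoter windows came from RefSeq on GRCh38.p14 and gene models from GENCODE on GRCh37. The tests were tried on simulated data. Alternatives were DESeq2 1.42.0, its size factors, scaling by totals, no filter, joint fits, another pseudocount, edgeR on recovered reads, a 2-fold minimum, leaving out libraries, and the replicate number as a block. Same-numbered replicates were taken as pairs where their deviations from the group means correlated above 0.1 in every pair, as for PD30 with PD24 (0.303, 0.538 and 0.280) and N+PD24 with Nutlin (0.615, 0.352 and 0.466), and for no other comparison of 2 groups.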

Additional observations from a re-analysis of the deposited data

Results flagged for a closer look

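Genes whose response to PD30 differed with and without Nutlin, by the interaction term of edgeR's quasi-likelihood test over 12 libraries, numbered 3. Over all 16113 genes tested, 12.8% were called on the higher side and 7.03% on the lower. The number is not above these shares, and nothing particular to the sterol genes is read from it. INSIG2 had an interaction of 0.70 on the log2 scale: PD30 left it near DMSO but put it above Nutlin alone. NPC1L1 had an interaction of -4.71, with reads in number only under Nutlin and N+PD24. It entered this test only through its level with Nutlin alone, so that its call is a description and supports nothing. NR1H3 had an interaction of -0.96, and this call was lost without PD30 replicate 2 (-0.85, adjusted p = 0.0501) and without replicate 1 in every group (-0.78, adjusted p = 0.0940).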

How the results depend on the processing

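The counts for PD30 against PD24, PD30 against DMSO and N+PD30 against Nutlin stayed within 1.5 times their values under the alternatives run. Higher calls in PD30 against PD24 numbered 17 to 25 in fits without 1 library, against 23. The other counts moved. For PD24 against DMSO, higher calls (8) were 5 to 13 in fits without 1 library, 13 without replicate 1 in every group (an alternative chosen after seeing the data) and 3 at over 2-fold, and lower calls (3) were 2 to 9. For Nutlin against DMSO, higher calls (6) were 3 at over 2-fold, and lower calls (4) were 2 in 1 fit over 15 libraries and 1 at over 2-fold. For N+PD24 against Nutlin, higher calls (12) were 7 at over 2-fold, and lower calls (2) were 2 to 4 without 1 library, 4 without replicate 1 in every group and 1 at over 2-fold. For N+PD30 against N+PD24, higher calls (17) were 9 to 23 without 1 library, and the lower call (1) was 0 without N+PD24 replicate 1 or 2 and 2 without N+PD30 replicate 1. For the interaction, the higher call (1) was 1 to 5 without 1 library (5 without N+PD30 replicate 1), 2 without replicate 1 in every group and 0 at over 2-fold, and lower calls (2) were 1 to 2 without 1 library, 1 without replicate 1 in every group and 1 at over 2-fold. The higher fold minimum asks for more by construction. The cause of the other changes was not tested. With the replicate number as a block, lower calls were 5 for PD24 against DMSO and 2 for N+PD30 against N+PD24. For N+PD24 against Nutlin they were 7 (background with the block: 26.9% of the 15262 genes). Higher calls were then 2 for the interaction and 24 for N+PD30 against N+PD24. Over all genes, calls of both directions together also rose with the block. They went from 5781 to 6793 for PD24 against DMSO and from 4821 to 5188 for N+PD30 against N+PD24. For the interaction they went from 3193 to 4130. The block lost no call made without it. HMGCS1 in PD24 against DMSO ranged from -0.56 (without PD24 replicate 3, adjusted p = 0.0275, the reverse of 0.09 with all) to 0.35 (without PD24 replicate 1). Scaling by totals shifted the median of all genes by -0.125 (log2) for Nutlin against DMSO and 0.118 for N+PD30 against N+PD24. Over all genes, PD30 against PD24 gave 3816 calls, and 884 without replicate 1 in every group. At 12704845 to 40231041 counts per library, NPC1L1 without Nutlin stayed at 1 to 6 reads, too few for a test.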
